A study of Mus musculus with 6 samples.

Results

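The 9 genes described here encode surface molecules through which an antigen-presenting cell instructs a T cell: Cd80, Cd83, Cd86, Cd274, Pdcd1lg2, Icosl, Cd276, Slamf7 and Havcr2. They were the rows of a gene count table whose Ensembl identifier, with its version removed, carried one of these names in GENCODE M21, and they made up 9 of the 55335 genes listed. The table came from bone marrow-derived macrophages (BMDM) of C57BL/6 mice, and the labels name every library wild type (WT). Of these, 3 were control libraries from cells given PBS and 3 were from cells given lipopolysaccharide (LPS), the bacterial cell wall ligand of TLR4. Each was collected after 1 h. Male mice of 7 to 10 weeks were the source, and marrow cells were cultured for 6 days with 10% fetal bovine serum and 20% L929-conditioned medium, which supplies the macrophage growth factor M-CSF. The comparison asks which transcripts of these macrophages had changed 1 h after LPS. The labels number the libraries of each group 1 to 3 and give the same number as a batch, but the sources used here do not say whether the numbers stand for separate mice or cultures, so the p-values measure only the spread between these libraries.

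To become activated a T cell must recognise peptide on an MHC molecule and also receive a costimulatory signal from the presenting cell. CD80 and CD86 give the classical costimulatory signal through CD28 and are also bound by the inhibitory receptor CTLA-4, whereas PD-L1 (Cd274) and PD-L2 (Pdcd1lg2) restrain T cells through PD-1. Resting macrophages are poor costimulators, and Toll-like receptor signalling is a classical trigger for the display of CD80 and CD86. The group is not made of ligands alone: Slamf7 encodes a receptor that binds itself on neighbouring cells, and Havcr2 encodes TIM-3, a receptor best known on exhausted T cells and also present on myeloid cells.

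The libraries held 37787611 to 41516330 counts each, and 15687 genes passed the filter on low counts, all 9 ligand genes among them. Levels are given as CPM, a gene's share of the library's TMM-scaled total, with ± for the SD over the 3 libraries of a group (n = 3 throughout). TMM sets the bulk of genes equal between libraries, and 3 counts corresponded to 0.0630 to 0.0919 CPM. Scaling by library size alone shifted the median log2 fold change of all genes by -0.40 and scaling by the upper quartile by -0.14. The macrophage markers summed to 29946 to 31229 CPM in control and 35886 to 36245 CPM in LPS libraries over 8 genes, led by Lyz2 and Csf1r. Cd14 was the one called higher, from 398.0 to 3623 CPM. The direction of the others depended on the scaling. The median log2 fold change of the 8 was 0.21, and -0.20 under library size alone. At an unadjusted edgeR p under 0.05, 6 were higher and 1 lower, against 1 higher and 6 lower under library size alone. Of 8 dendritic cell markers, a cell type for which CD80, CD83 and CD86 also serve as markers, 5 were called higher and 3 under library size alone. Of all tested genes 10.5% were called higher. The summed level of the 8 under TMM went from between 90.2 and 99.9 CPM to between 104.6 and 107.2 CPM. Most of it was Itgax, which had a log2 fold change of 0.05, and -0.35 under library size alone. Zbtb46, a transcription factor of classical dendritic cells, had 0.396 CPM in control and 2.25 CPM in LPS libraries. Flt3, a growth factor receptor of dendritic cell precursors, had 0.899 and 2.78 CPM, and the chemokine receptor gene Xcr1 had 2, 1 and 2 against 27, 17 and 15 counts. None of the 8 was at 0 in every library, and their part in the results was not tested. T cell markers summed to at most 32.2 CPM, nearly all Cd4, with Cd3d, Cd3e and Cd3g at 9 counts or fewer in every library. B cell markers summed to 103.1 to 118.1 CPM, mostly Ighm, and neutrophil markers to 41.1 to 57.1 CPM with Ly6g at 3 counts or fewer. Of 8 T cell, 6 B cell and 8 neutrophil markers, 2, 3 and 7 were tested and none was called. An adjusted p under 0.05 in edgeR was reached by 1, 2 and 3 of them, and by 10626 of all 15687 tested genes. Without control replicate 3, Ms4a1 of the B cell markers was called higher. In such bulk samples fewer cells of a type and less RNA per cell cannot be told apart.

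Among the ligand genes, 7 were higher in LPS than in control libraries and none was lower. A gene was called when the adjusted p of edgeR's quasi-likelihood test was under 0.05 and the log2 fold change was beyond 1. By this rule 7 of 9 were called higher against 10.5% of all tested genes, and 0 of 9 were called lower against 10.4%. The 0 was also found at an unadjusted p under 0.05, by DESeq2 and by limma voom. The median log2 fold change was 1.56 over the 9 genes and -0.01 over all tested genes. Under library size alone 5 of 9 were called higher, 1213 genes in all were higher and 2964 lower, so that 29.0% of calls were higher in place of 50.4%.

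**Figure D1:**
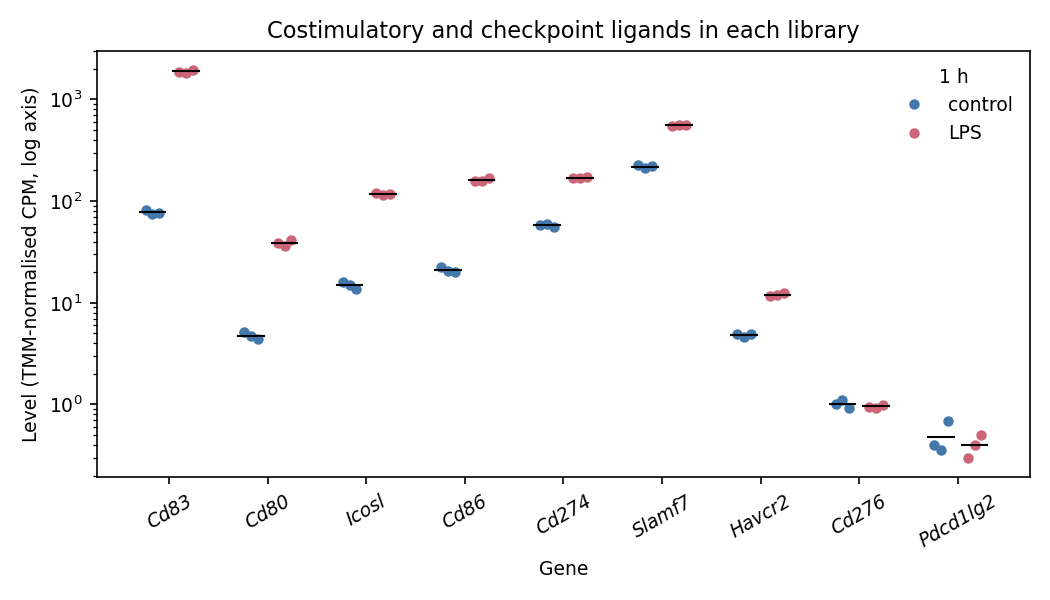
Level of each ligand gene (TMM-normalised CPM, log axis) in the 3 control (blue) and 3 LPS (red) libraries at 1 h, with each group's mean as a bar. The 2 groups stand apart for Cd83, Cd80, Icosl, Cd86, Cd274, Slamf7 and Havcr2 and overlap for Cd276 and Pdcd1lg2.

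Cd83 encodes a surface protein of mature dendritic cells that keeps MHC class II and CD86 at the cell surface by opposing the ubiquitin ligase MARCH1. The gene (ENSMUSG00000015396.4) lies on the plus strand at chr13:43784775-43803132 of GRCm38. It was measured at 82.2, 74.2 and 76.9 CPM in the control libraries and at 1881, 1833 and 1941 CPM in the LPS libraries. Every LPS library was far above every control library. The means of 77.8 ± 4.04 CPM and 1885 ± 54.0 CPM differed by a factor of 24.2, a log2 fold change of 4.60 with an SE of 0.046 (edgeR, adjusted p = 1.49e-22). This was the 231st largest rise among the 15687 tested genes. Of the summed level of all 9 genes, taken as CPM per kilobase of annotated exon, Cd83 held 28.4% ± 0.41 in control and 74.3% ± 0.33 in LPS libraries.

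Cd80 and Cd86 encode B7-1 and B7-2, which share the receptors CD28 and CTLA-4. Cd80 (ENSMUSG00000075122.5, chr16:38455561-38496335, plus strand) was measured at 5.12, 4.71 and 4.42 CPM in control and at 39.0, 36.4 and 41.1 CPM in LPS libraries. Its lowest LPS value was well above its highest control value, and the log2 fold change was 3.03 with an SE of 0.069 (edgeR, adjusted p = 3.32e-17). Cd86 (ENSMUSG00000022901.13, chr16:36603869-36666081, minus strand) was measured at 22.6, 20.6 and 20.3 CPM in control and at 156.4, 155.9 and 167.6 CPM in LPS libraries. Here too the groups were far apart. The log2 fold change of Cd86 was 2.92 with an SE of 0.047 (edgeR, adjusted p = 1.40e-19), and its 95% interval of 2.82 to 3.02 overlapped the interval of 2.88 to 3.17 of Cd80.

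The balance of these B7 transcripts was followed as the log2 ratio of Cd80 to Cd86 counts within a library, which no scaling between libraries can move. It was -2.14, -2.12 and -2.20 in control and -2.0, -2.10 and -2.03 in LPS libraries. Cd86 counts exceeded Cd80 counts in all 6 libraries. The ratio was higher in each LPS library than in each control library, but only by 0.11 on average (exact two-sided permutation test, p = 0.1, the smallest that 3 against 3 libraries allow).

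Icosl encodes the ligand of ICOS, a costimulatory receptor that activated T cells acquire and that follicular helper T cells depend on. Icosl (ENSMUSG00000000732.9, chr10:78069302-78083913, plus strand) was measured at 15.9, 14.9 and 13.7 CPM in control and at 119.3, 114.6 and 116.2 CPM in LPS libraries. The groups did not overlap, and the log2 fold change of 2.98 (SE 0.048, edgeR, adjusted p = 1.50e-19) lay between those of Cd80 and Cd86. The intervals of all 3 genes overlapped one another, with 2.88 to 3.08 for Icosl.

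Cd274 and Pdcd1lg2 encode PD-L1 and PD-L2, the ligands of the inhibitory receptor PD-1, and lie next to each other on chromosome 19 with 22823 bases between them. Cd274 (ENSMUSG00000016496.7, chr19:29367455-29388095, plus strand) was measured at 58.3, 58.9 and 55.9 CPM in control and at 169.7, 168.0 and 172.6 CPM in LPS libraries. Its groups were clearly separated with a log2 fold change of 1.56 (SE 0.035, edgeR, adjusted p = 2.29e-17). An antisense gene, AC119228.1, covers 14.1% of the exonic length of Cd274 and held 2 to 14 counts per library. Pdcd1lg2 (ENSMUSG00000016498.10, chr19:29410919-29471161, plus strand) stood at 19, 16 and 32 counts under PBS and at 10, 13 and 17 counts under LPS. These are 0.399, 0.354 and 0.694 CPM against 0.298, 0.398 and 0.50 CPM, and the groups overlapped. The antisense gene A930007I19Rik overlaps the gene body of Pdcd1lg2 but shares 0 exonic bases with it, and held 74 to 135 counts per library. The log2 fold change of Pdcd1lg2 was -0.27 with a 95% interval of -0.98 to 0.44 (edgeR, adjusted p = 0.494), and without control replicate 3, its highest library, it was 0.080. A change within this interval was not detectable at this depth.

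The PD-1 ligands were also compared within each library. The log2 ratio of Cd274 to Pdcd1lg2 counts was 7.15, 7.33 and 6.31 in control and 9.08, 8.67 and 8.39 in LPS libraries. The ratio was higher in each LPS library than in any control library, by 1.78 on average (exact two-sided permutation test, p = 0.1, the smallest possible). On its other side Cd274 lies head to head with Plgrkt, which encodes a plasminogen receptor and runs on the minus strand, with only 64 bases between the annotated gene ends. Plgrkt was at 43.2 ± 0.41 CPM in control and 40.2 ± 0.98 CPM in LPS libraries, and was not called (log2 fold change -0.11, edgeR, adjusted p = 0.0282). The stretch between both genes, chr19:29367391-29367454, is shown on the plus strand (sequence of RefSeq, GRCm38.p6). It gives the size of the interval that separates a called gene from one that was not. Its ends follow GENCODE, and the RefSeq start of Cd274, base 29367438, lies inside it. No capitals are given since none of the motifs searched was found in the Cd274 promoter.
Cd274 to Plgrkt interval: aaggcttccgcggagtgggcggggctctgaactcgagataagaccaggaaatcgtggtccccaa

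Slamf7 was the ligand gene with the highest CPM in control libraries. The protein, also called CRACC, signals in natural killer cells and macrophages through homophilic contact. Slamf7 (ENSMUSG00000038179.13, chr1:171632403-171653035, minus strand) was measured at 227.2, 209.3 and 219.1 CPM in control and at 553.7, 563.8 and 563.8 CPM in LPS libraries. All LPS libraries exceeded all control libraries by more than the spread of either group, and the log2 fold change was 1.36 (SE 0.036, edgeR, adjusted p = 2.76e-16). Under library size alone it was 0.95 and passed the test on p but not the limit on fold change. The antisense gene Gm37787 covers 9.24% of the exonic length of Slamf7 and held at most 4 counts.

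Havcr2 (ENSMUSG00000020399.14, chr11:46454935-46481255, plus strand) was measured at 4.91, 4.63 and 4.96 CPM in control and at 11.6, 11.9 and 12.4 CPM in LPS libraries. The groups did not overlap. The log2 fold change of Havcr2 was 1.31 (SE 0.080, edgeR, adjusted p = 8.30e-11), and 0.90 under library size alone, where it too fell short of the limit on fold change.

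Cd276 encodes B7-H3, a B7 family member whose receptor is still debated. Cd276 (ENSMUSG00000035914.11, chr9:58524298-58555437, minus strand) received 48, 50 and 43 counts under PBS and 32, 30 and 34 counts under LPS. After scaling these were 1.01, 1.11 and 0.932 CPM against 0.954, 0.919 and 0.999 CPM, values that overlapped. The log2 fold change was -0.08 with a 95% interval of -0.50 to 0.33 (edgeR, adjusted p = 0.721), and -0.49 under library size alone (adjusted p = 0.0289), which did not reach the limit on fold change. A gene on the other strand, Gm10657, covers 11.4% of its exonic length and had 0 to 2 counts.

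**Figure D2:**
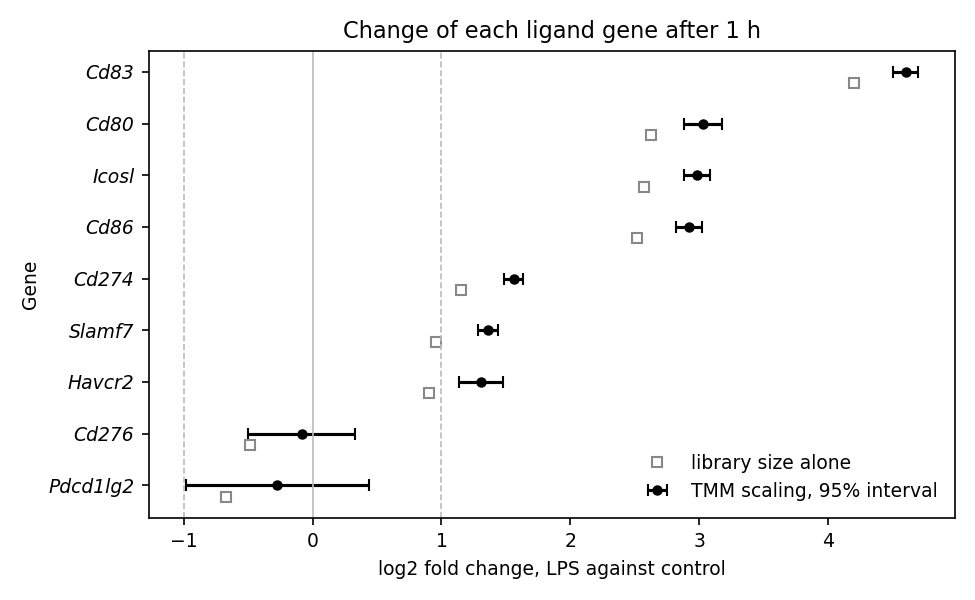
Log2 fold change of each ligand gene, LPS against control, with the 95% interval of the edgeR fit under TMM (black) and the value under library size alone (grey squares), where dashed lines mark the limits of -1 and 1. Slamf7 at 0.95 and Havcr2 at 0.90 are the called genes whose squares lie inside the limits.

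Levels were compared between genes as CPM per kilobase of annotated exon. In control libraries Slamf7 led with 47.7 ± 1.96 CPM per kb, followed by Cd83 at 30.2 ± 1.57 and Cd274 at 15.9 ± 0.44. Cd86 at 5.78 ± 0.35 CPM per kb came next, then Icosl at 3.20 ± 0.24, Havcr2 at 1.78 ± 0.067 and Cd80 at 1.28 ± 0.095. Cd276 at 0.278 ± 0.024 and Pdcd1lg2 at 0.246 ± 0.094 CPM per kb were the lowest and were the only neighbours in this order whose libraries overlapped.

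After LPS the order by CPM per kb was led by Cd83 at 732.9 ± 21.0, with Slamf7 second at 122.4 ± 1.27. Cd274 at 47.0 ± 0.64 and Cd86 at 43.7 ± 1.82 CPM per kb were then nearly level, although their libraries did not overlap. Icosl stood at 25.3 ± 0.52, Cd80 at 10.5 ± 0.63 and Havcr2 at 4.40 ± 0.15 CPM per kb. Cd83 and Cd80 had thus moved ahead of Slamf7 and Havcr2, respectively. Cd276 at 0.262 ± 0.011 and Pdcd1lg2 at 0.203 ± 0.051 CPM per kb again overlapped at the bottom.

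**Figure D3:**
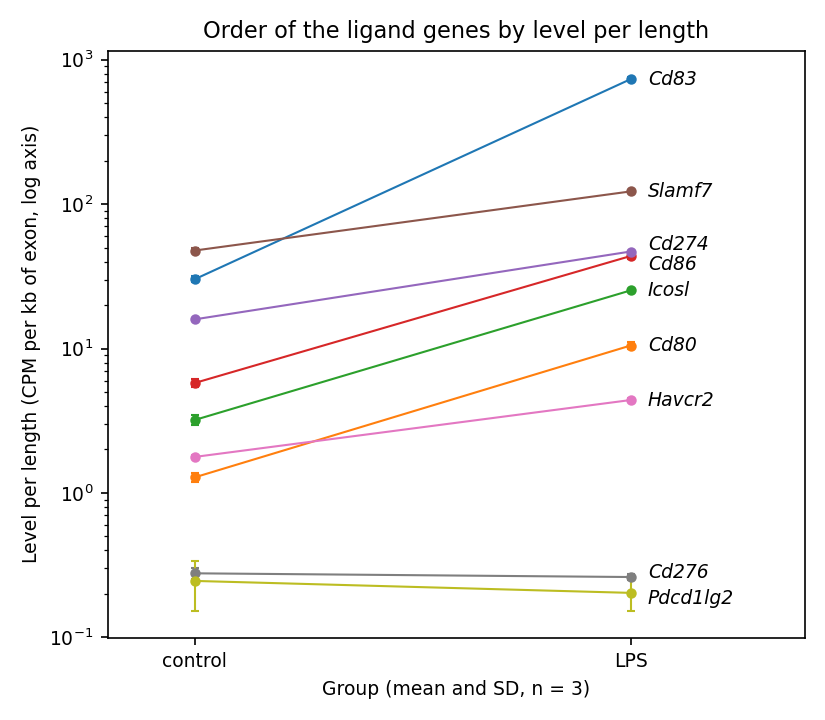
Level per length (mean CPM per kb of exon, log axis, bars for the SD of 3 libraries) of each ligand gene in control and LPS libraries, joined by a line for each gene. The lines of Cd83 and Slamf7 cross, as do those of Cd80 and Havcr2, while Cd276 and Pdcd1lg2 stay below 1 CPM per kb.

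Other genes of the same functions were counted from lists. Their calls are to be read beside the 10.5% of all tested genes called higher and the 10.4% called lower. The TNF superfamily ligands, another large family of costimulatory molecules, were listed together with Cd40, the receptor through which helper T cells license antigen-presenting cells. The list also held Tnfrsf14, a gene of the TNF receptor superfamily, which was not called (log2 fold change -0.29, edgeR, adjusted p = 2.91e-05). Of 9 listed genes 7 were tested, 5 were called higher and 1 lower, with a median log2 fold change of 2.70. Tnfsf9, the 4-1BB ligand, was measured at 2.45 ± 0.12 CPM in control and 1214 ± 33.6 CPM in LPS libraries, a log2 fold change of 8.95 (edgeR, adjusted p = 7.70e-25). Tnfsf4, the OX40 ligand, rose from 7, 7 and 4 counts to 1305, 1214 and 1310 counts, a log2 fold change of 8.17 (edgeR, adjusted p = 2.40e-20). Cd40 rose from 11.5 ± 0.31 to 389.1 ± 9.40 CPM, by 5.08 on the log2 scale. All 3 changes were larger than that of Cd83. Tnfsf8, the CD30 ligand, was the gene called lower, with 58, 52 and 53 counts under PBS and 18, 17 and 13 counts under LPS (log2 fold change -1.29, edgeR, adjusted p = 7.61e-05), a call that glmTreat did not make. Cd70 held 3 counts or fewer in every library.

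Of 12 listed genes from the remaining B7 and butyrophilin families and from ligands of related receptors, 11 matched a row by name (Ncr3lg1 was not analysed here), 5 were tested and 1 was called, with a median log2 fold change of 0.42. It was Pvr, which encodes CD155, the ligand of the activating receptor CD226 and the inhibitory receptor TIGIT. Pvr rose from 12.3 ± 0.62 CPM to 241.8 ± 5.91 CPM, a log2 fold change of 4.29 (edgeR, adjusted p = 2.03e-22), close to that of Cd83. Vtcn1, Btn1a1 and Btn2a2 held 3 counts or fewer in every library. Vsir, which encodes the checkpoint ligand VISTA and was picked out after its values were seen, had 554.9 CPM in control and 458.3 CPM in LPS libraries. It passed the test on p but not the limit on fold change (log2 fold change -0.28, edgeR, adjusted p = 8.06e-07, and -0.68 under library size alone).

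Slamf7 was compared with 10 listed members of its family and their SAP adaptors, of which 9 were tested, with a median log2 fold change of 0.11. Of these 9, 1 was called higher, beside 10.5% of all tested genes. Slamf1, itself a homophilic receptor, was the gene called, at 10, 14 and 18 counts under PBS and 44, 39 and 41 counts under LPS (log2 fold change 2.02, edgeR, adjusted p = 1.97e-06). Sh2d1a, the adaptor SAP of lymphocytes, held 1 count or none. Under library size alone the median was -0.29, and the adaptor gene Sh2d1b1 was also called, lower (-1.14, and -0.74 under TMM). Of 7 listed genes of the TIM family and of TIM-3 partners, 5 were tested and Timd4 alone was called higher, from 8, 8 and 13 counts to 15, 11 and 20 counts (log2 fold change 1.12, edgeR, adjusted p = 0.0108). Counts of Timd4 overlapped between the groups, but CPM did not. In control libraries it had 0.168, 0.177 and 0.282 CPM, and in LPS libraries 0.447, 0.337 and 0.588 CPM. Timd4 was not called under library size alone (log2 fold change 0.72, edgeR, adjusted p = 0.0758) or with glmTreat. The median of this list was 0.23 (-0.17 under library size alone), and the TIM-3 ligand genes Lgals9 and Ceacam1 were not called.

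Genes that govern how long CD86, MHC class II and PD-L1 stay at the cell surface were listed because their products act on the proteins described here. All 6 were tested and 1 was called, lower, with a median log2 fold change of -0.17. It was March1, the ubiquitin ligase that removes CD86 and MHC class II, and that CD83 opposes. March1 was at 93.7 ± 2.65 CPM in control and 43.8 ± 1.89 CPM in LPS libraries, a log2 fold change of -1.10 (edgeR, adjusted p = 4.92e-14). Cmtm6, which protects PD-L1 from degradation, had a log2 fold change of -0.09 and was not called.

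Of 6 listed receptors and partners of the ligands 4 were tested, 1 was called higher and 1 lower, with a median log2 fold change of -0.10. Icos was called higher from 10, 9 and 8 counts to 18, 16 and 21 counts (log2 fold change 1.48, edgeR, adjusted p = 0.000544). Treml2, proposed as a partner of B7-H3, was called lower, from 18.6 ± 0.68 CPM to 8.88 ± 0.35 CPM, a log2 fold change of -1.06. With glmTreat, which tests against a log2 fold change of 1, 0 of 4 were called, and Icos was left untested where 10 counts were required in every library. Cd28, picked out after its values were seen, was at 140.7 ± 5.52 CPM in control and 215.6 ± 13.3 CPM in LPS libraries and was not called (log2 fold change 0.62, edgeR, adjusted p = 4.69e-10). This level stood beside Cd3d, Cd3e and Cd3g counts of 9 or fewer. Rgmb, a receptor of PD-L2, had a log2 fold change of -0.81 and was called lower under library size alone (-1.21). Pdcd1 and Ctla4 held at most 2 and 4 counts, respectively.

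**Figure D4:**
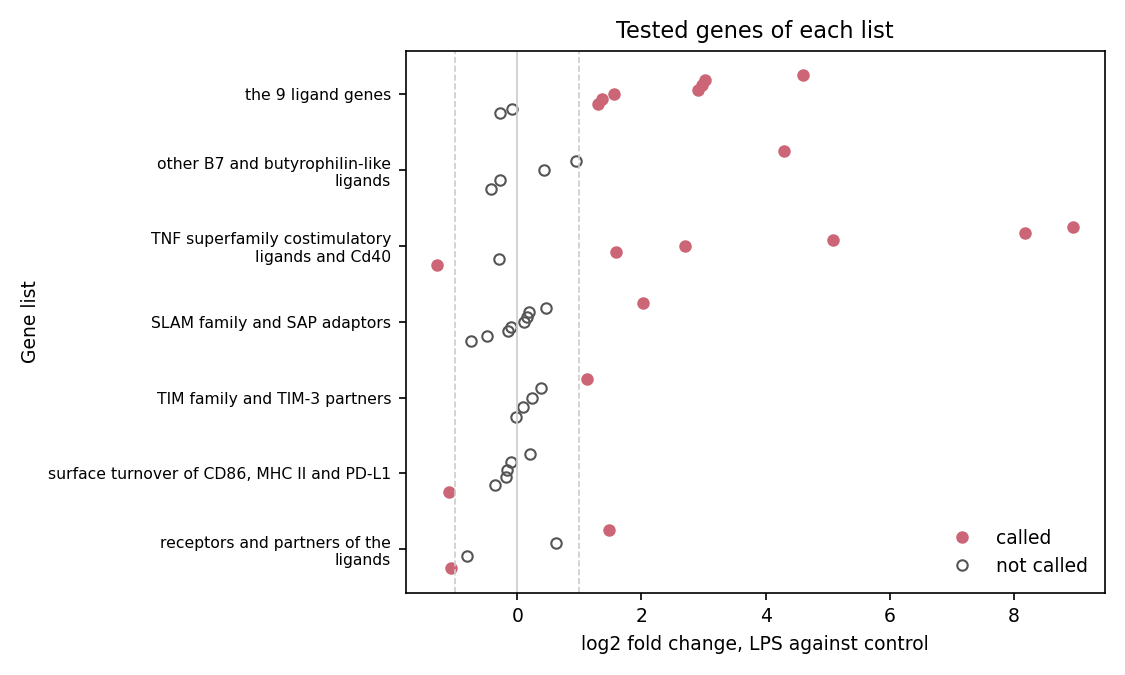
Log2 fold change, LPS against control, of every tested gene of the 9 ligand genes and of 6 related lists, with filled points for called genes, open points for the others and dashed lines at -1 and 1. Points beyond 4 are Cd83, Pvr, Cd40, Tnfsf4 and Tnfsf9.

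The genes beside each ligand gene were examined to see whether the change extended along the chromosome. Within 100 kb, 14 other protein-coding genes were the nearest on one side of a ligand gene, and 10 of them were tested. Of these, 2 were called, both higher, against 10.5% of all tested genes. Under library size alone 1 of 10 was called, as with glmTreat, and 4 of 12 were with every gene of at least 1 count tested, where Casr beside Cd86 and Dnmt3l beside Icosl were added at 3 and 6 counts or fewer. One was Ildr1, which lies 27896 bases from Cd86 and held 3, 1 and 0 counts under PBS and 57, 69 and 58 counts under LPS. Its log2 fold change of 5.85 (edgeR, adjusted p = 4.89e-10) was larger than that of Cd86 at 2.92, but started from counts near the floor. The other was Med7, a Mediator subunit gene 12213 bases from Havcr2, with a log2 fold change of 1.10 (edgeR, adjusted p = 6.84e-11) and 0.69 under library size alone. Cd80 lies between Adprh and Timmdc1, 2857 and 2011 bases away, neither of which was called (log2 fold changes 0.56 and -0.08, edgeR, adjusted p = 1.93e-08 and 0.350). Slamf7 lies between its family members Cd244a and Cd48, which had log2 fold changes of 0.46 and 0.15 (0.059 and -0.25 under library size alone) and were not called. Ric1, 51120 bases beyond Pdcd1lg2, had a log2 fold change of 0.95 (edgeR, adjusted p = 2.09e-14) and fell short only of the limit on fold change. Cd83 has no other protein-coding gene within 100 kb.

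**Figure D5:**
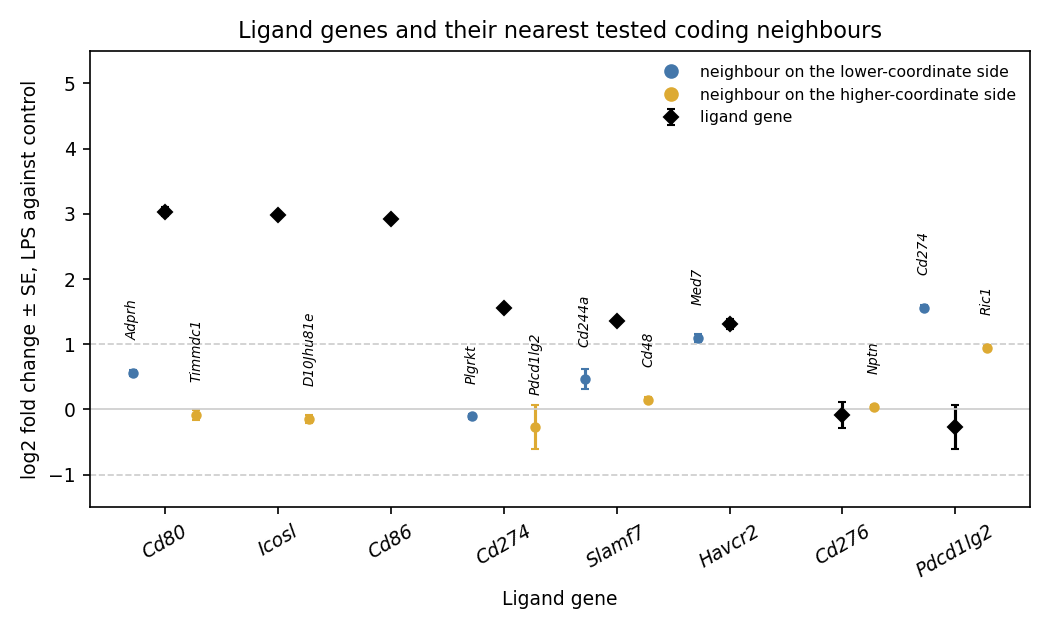
Log2 fold change (± SE) of ligand genes (black diamonds) and of their nearest tested protein-coding neighbours on the lower (blue) and higher (yellow) coordinate side, with dashed lines at -1 and 1 and without Ildr1, whose control counts were 3 or fewer. The neighbours of Cd80, Icosl, Cd274 and Slamf7 lie below the gene they flank, and Med7 lies just under Havcr2. Cd274 and Ric1 lie above Pdcd1lg2, and Nptn lies above Cd276.

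The genes whose pattern was most like that of a ligand gene were found as those with the smallest Euclidean distance in log2 CPM, centred on each gene's mean over the 6 libraries. Tmem39a was the nearest gene to both Cd80 (distance 0.103) and Icosl (0.0839) and the second nearest to Cd86 (0.116). It lies at chr16:38558698-38592162, 62362 bases from Cd80 on the same chromosome, and rose from 11.7 to 93.7 CPM. Icosl itself was the second nearest to Cd80 (0.125). The nearest to Cd86 was Cd69 (0.0939), an early activation marker of lymphocytes, and the nearest to Cd83 was Arl5b (0.143). Cd274 was nearest to Blcap (0.0695) and then to the cyclin gene Ccnd2 (0.0722). Slamf7 was nearest to Fam107b (0.0524) and Havcr2 to Pstpip2 (0.0731). Genes with changes of like size are close by this measure, which does not use function or level. Cd276 and Pdcd1lg2 were nearest to genes that were not called, Fcho1 (0.0574) and 4921528I07Rik (0.139).

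The sequence ahead of the ligand genes was read from RefSeq promoters (GRCm38.p6, 250 bases before to 50 after the start), which held 7 of the 9 genes, with Cd83 and Cd86 the others. Motifs of 5 factor classes that act in activated macrophages were searched on both strands: the AP-1 motif TGANTCA, the paired interferon-stimulated motif GAAANNGAAA, the STAT motif TTCNNNGAA, the ETS motif AGGAAGT bound by PU.1, and the kappaB motif. TGANTCA was found in Cd80, Slamf7 and Havcr2 and in 7.79% of all 32544 promoters. The kappaB motif was found in Pdcd1lg2 and in 4.53% of all promoters. AGGAAGT was found at 2 places in Havcr2 and in 9.27% of all promoters. GAAANNGAAA (3.45% of promoters) and TTCNNNGAA (8.33%) were found in none of the 7, and Cd274, Icosl and Cd276 held none of the 5 motifs. Of the 250 bases before the RefSeq start, 250 in Cd276 and 66 in Icosl lie in exons that GENCODE annotates. For these genes the window is thus not wholly sequence ahead of the GENCODE gene. A match describes letters in the window and is no evidence of binding.

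Of these promoters, 3 are shown, those of Cd80 and Slamf7 because TGANTCA stands at the same place in both, from 42 to 36 bases before the start, and that of Pdcd1lg2 because the one kappaB match belongs to a gene that was not called. Capitals mark the match, each sequence reads 5′ to 3′ on the strand of its gene and ends at the base before the RefSeq start. The windows are chr16:38458683-38458932 on the plus strand for Cd80, chr1:171649000-171649249 on the minus strand for Slamf7 and chr19:29410669-29410918 on the plus strand for Pdcd1lg2. The RefSeq starts of Cd80 and Slamf7 lie inside the gene bodies that GENCODE annotates, downstream of the outermost GENCODE start.
Cd80: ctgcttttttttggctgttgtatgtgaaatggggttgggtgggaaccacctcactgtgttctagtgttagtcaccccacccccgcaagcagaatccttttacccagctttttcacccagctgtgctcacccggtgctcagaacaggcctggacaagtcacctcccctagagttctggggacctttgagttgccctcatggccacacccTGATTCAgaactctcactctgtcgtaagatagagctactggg
Slamf7: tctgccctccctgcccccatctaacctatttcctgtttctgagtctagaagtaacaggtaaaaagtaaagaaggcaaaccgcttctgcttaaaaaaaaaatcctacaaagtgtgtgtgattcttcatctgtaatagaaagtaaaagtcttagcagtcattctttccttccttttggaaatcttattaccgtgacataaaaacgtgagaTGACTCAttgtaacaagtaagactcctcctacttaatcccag
Pdcd1lg2: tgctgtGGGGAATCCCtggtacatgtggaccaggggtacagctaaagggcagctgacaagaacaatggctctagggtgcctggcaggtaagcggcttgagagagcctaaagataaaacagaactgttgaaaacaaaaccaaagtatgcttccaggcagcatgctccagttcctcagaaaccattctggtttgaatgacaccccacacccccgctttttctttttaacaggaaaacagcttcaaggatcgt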

How the data were processed

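Total RNA of BMDM was sequenced in 3 control and 3 LPS libraries with a kit that marks strand, and groups were taken from the sample titles. Per the labels and the study's methods, the authors aligned paired-end reads to GRCm38 with HISAT2 2.1.0, handled alignments in SAMtools 1.17 and obtained gene counts from featureCounts 2.0.0. The deposited values are these raw counts, not normalized. The gene annotation, strand setting and treatment of multiply mapped reads are not given in the sources used here, so genes with an overlapping antisense gene are uncertain. Of 55335 identifiers, 55154 matched a GENCODE M21 name, and exonic length is the union of that annotation's exons. Marchf1, Marchf8 and Cd244 stood in the lists as other spellings of March1, March8 and Cd244a and were counted once.

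Counts were filtered with filterByExpr, scaled by TMM and tested with edgeR 4.0.16 (R 4.3.3) by glmQLFit and glmQLFTest, with Benjamini-Hochberg adjustment over the 15687 tested genes. A call needed an adjusted p under 0.05 together with a log2 fold change beyond 1 in either direction. Ratios within a library used a pseudocount of 0.5. The steps were tested on simulated data. The labels give the replicate number also as a batch, which pairs the libraries across groups, and the departures from the group mean correlated between libraries of the same number at -0.01, 0.08 and 0.04. Alternatives were 2 other tools (DESeq2 1.42.0 and limma 3.58.1 with voom), other scalings and filters, glmTreat, library sizes without the 10 genes of highest mean count, the replicate block and leaving out each library. Named were all 9 ligand genes, the 3 largest rises and falls among called genes of each list, leading and near-absent markers, the nearest coding genes and the genes most alike. Vsir, Cd28, Sh2d1b1, Rgmb, Cmtm6, Lgals9, Ceacam1, Tnfrsf14 and Ms4a1 were named after their values were seen. The ligand genes and all lists were chosen with earlier results of these data known. Depth of 37787611 to 41516330 counts per library sets the precision, and 3 counts were taken as the floor. Other experiments of the study were not analysed here.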

Additional observations from a re-analysis of the deposited data

How the results depend on the processing

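Under 10 alternatives, and with each library left out in turn, Cd80, Cd83, Cd86, Icosl and Cd274 were called higher each time, with log2 fold changes of 2.62 to 3.09, 4.19 to 4.64, 2.51 to 2.97, 2.57 to 3.03 and 1.15 to 1.58. Scaling by library size alone took the call from Slamf7 (0.95) and Havcr2 (0.90), left 5 of 9 ligand genes called and put 2964 genes in place of 1624 as lower. The number of genes called lower was 1027 with at least 10 counts required in every library, which tests fewer genes, and 922 with glmTreat, which tests against the limit itself. Leaving out 1 library moved Pdcd1lg2 between -0.47 and 0.080, with the change of sign without control replicate 3 (adjusted p = 0.860), and kept 7 ligand genes called. With the replicate block, which follows the pairing of libraries by batch number, 7 ligand genes were called, 1652 genes were higher and 1624 lower, and no call of a ligand gene changed. Ratios differed by 0.09 to 0.14 for Cd80 to Cd86 and by 1.47 to 1.98 for Cd274 to Pdcd1lg2 when a library was left out. Depth limits Pdcd1lg2, at 10 to 32 counts, and Cd276, at 30 to 50 counts. Groups of 3 libraries cannot give an exact p below 0.1.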
